A study of Mus musculus with 12 samples.

Results

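The bone morphogenetic protein (BMP) axis is described here by 9 genes of the 13942 in the deposited table: the ligand genes Bmp2, Bmp4, Bmp6 and Bmp7, the target genes Id1, Id2 and Id3, and the inhibitory Smad genes Smad6 and Smad7. They were taken by gene symbol, all 9 were present once, and all 9 passed the filter on low values that left 13523 genes for testing. RNA sequencing had been run on polyA RNA of mouse retinal pigment epithelium (RPE), the pigmented cell layer behind the retina, on the C57BL/6J strain. The 4 groups of 3 libraries were P5 Sox9 cKO, P5 wild type (WT), E15.5 Sox9 cKO and E15.5 WT, where cKO is a conditional knockout of the transcription factor gene Sox9, and E15.5 and P5 are an embryonic and a postnatal age in days. Neither the Cre line nor the deleted exons nor the way RPE was separated from its neighbours is stated in the labels. The labels also do not say that replicates came from separate animals, and the p-values therefore reflect no more than how far these samples vary, which may be technical. The design crosses genotype with age, and so asks which genes differ without Sox9 before and after birth and which change as the RPE matures.

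BMPs are secreted dimers that bind type I and type II serine/threonine kinase receptors. The activated receptors phosphorylate SMAD1, SMAD5 and SMAD9, which enter the nucleus with SMAD4 and switch on target genes. The Id genes are the best known of these targets: they encode helix-loop-helix proteins without a DNA-binding region, which pair with E proteins and keep them off DNA. Smad6 and Smad7 are targets as well and encode inhibitors that act back on the receptors and on the activated SMADs. In the embryonic eye, BMP signals take part in setting the RPE, retina and lens apart, and loss of Bmp7 disturbs eye formation in mice.

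Values are quantile-normalised gene counts: each library was put on 1 common distribution (median 367.4, lowest value 50, the floor), so the depth behind a value is unknown and no counting error can be given. Sox9 itself went against its label at P5. In replicates 1, 2 and 3, the order used throughout, it stood at 2135.7, 2383.8 and 2928 in the libraries labelled cKO, against 963.7, 1499.5 and 1111.4 in WT, with no overlap and a difference of 1.07 ± 0.17 on the log2 scale (SE, adjusted p = 0.0316 by limma). At E15.5 it stood at 1034, 990 and 1006.2 in the libraries labelled cKO, against 1156.2, 1060.3 and 931.6 in WT, and both sets overlapped. The genotype names are used below as labels only.

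The libraries also differed in markers of other tissues, most of all at P5. Of 15 photoreceptor markers listed, all in the table, the summed level was 3618 to 56662 in P5 cKO, 3570 to 113380 in P5 WT, 750 to 757 in E15.5 cKO and 750 to 782 in E15.5 WT, with 13 to 15 of them at the floor at E15.5. The summed level of the 14 endothelial markers, none at the floor, was 19130 to 35766 in P5 cKO, 23620 to 46114 in P5 WT, 10462 to 12447 in E15.5 cKO and 11288 to 12601 in E15.5 WT. Lens markers, 10 of 13 listed, summed to 5099 to 9896 in P5 cKO, 581 to 5947 in P5 WT, 864 to 1467 in E15.5 cKO and 726 to 1486 in E15.5 WT. Of 13 RPE markers in the table, Rpe65 was at the floor in all P5 cKO, E15.5 cKO and E15.5 WT libraries, against 177.8 to 563.7 in P5 WT. Lrat and Kcnj13 were at the floor in all E15.5 libraries. Between the labels at P5, 1 of the 13 RPE markers was called lower in cKO, where 0.0444% of all genes were. The 13 mesenchyme and pericyte markers summed to between 292934 and 665228, more than the RPE markers (26411 to 148232) in each of the 12 libraries. Of these, Col1a1 alone stood at 274806.1 in every P5 WT and every E15.5 cKO library, so the sums do not compare amounts of tissue. In bulk samples such as these, fewer cells of a type and less RNA per cell cannot be told apart.

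Between E15.5 and P5 the Id genes, the inhibitory Smads and 3 of the 4 ligands were higher in the cKO, and 5 of the 9 genes were higher in WT. The largest change was that of Bmp6, 11-fold in the cKO and 4.12-fold in WT. Bmp7 was the member without a call in either genotype. In all, 8 of 9 genes rose in the cKO, where 17.6% of all genes tested rose, and 5 of 9 rose in WT, where 15% did. The same 8 and 5 genes had P5 libraries that all lay above the E15.5 libraries of their genotype, where 23.8% (cKO) and 19.3% (WT) of all genes did. The median log2 fold change of the 9 genes was 1.29 in the cKO and 0.70 in WT, beside -0.083 and -0.073 over all genes tested.

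**Figure D1:**
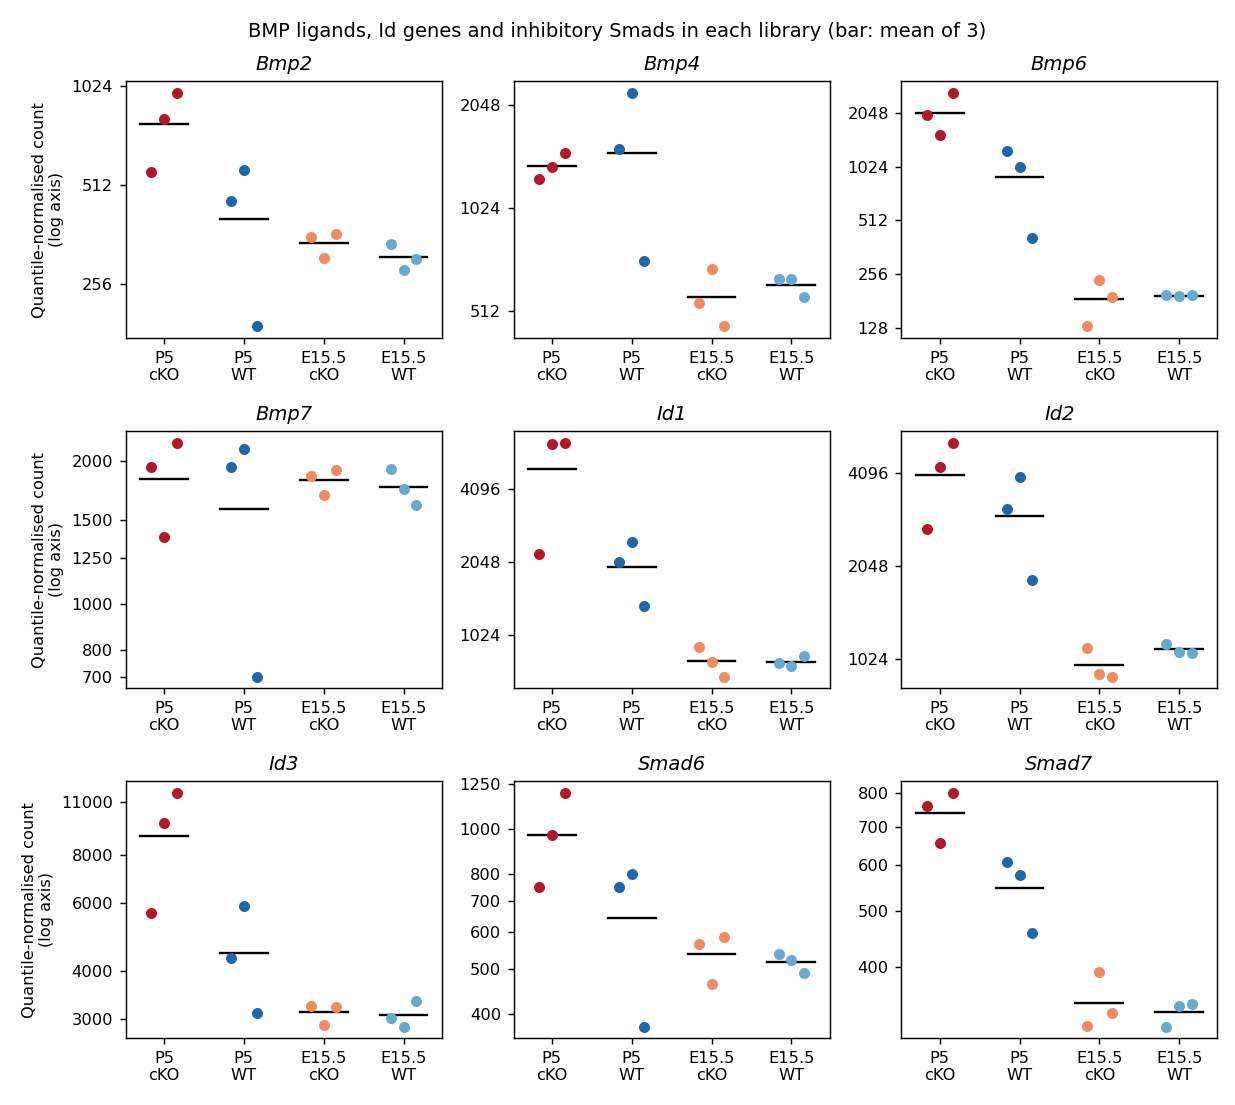
Quantile-normalised count (log axis) of each gene in each of the 12 libraries, by group; points stand for libraries in the order of replicates 1 to 3 and the bar is their mean. In Bmp4, Bmp6, Id1, Id2 and Smad7 every P5 library lies above every E15.5 library, and P5 WT replicate 3 is the lowest P5 library in all 9 panels.

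Upstream windows from RefSeq (GRCm38.p6) were at hand for 5 of the 9 genes, from 250 bases before to 50 bases after the annotated start, and are shown because these members moved with age and are known SMAD targets or ligands. On both strands, 4 motifs were looked for: GGCGCC, a GC-rich element of BMP-responsive promoters, CAGAC, a SMAD-binding element, GTCTAGAC, the SMAD palindrome, and ACAAT, the core of SOX sites. None of these contains another. The windows of Bmp4 and Smad6 lie before the annotated gene and are printed here 5′ to 3′ on the gene's strand, with motif matches in capitals. Smad6 is at chr9:64022056-64022309 (minus strand), with the last 4 bases past its start, and Bmp4 at chr14:46390670-46390919 (minus strand).
Smad6: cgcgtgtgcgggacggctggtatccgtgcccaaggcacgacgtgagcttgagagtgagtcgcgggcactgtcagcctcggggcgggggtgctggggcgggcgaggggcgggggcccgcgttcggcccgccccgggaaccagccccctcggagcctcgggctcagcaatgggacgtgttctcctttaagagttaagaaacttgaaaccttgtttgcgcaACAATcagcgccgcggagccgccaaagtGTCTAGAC
Bmp4: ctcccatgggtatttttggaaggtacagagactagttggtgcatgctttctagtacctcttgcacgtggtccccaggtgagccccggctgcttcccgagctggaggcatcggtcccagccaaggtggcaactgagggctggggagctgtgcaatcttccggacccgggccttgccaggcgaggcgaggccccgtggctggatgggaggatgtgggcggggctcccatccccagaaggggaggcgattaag
The Smad6 window holds the SMAD palindrome across its start and ACAAT 32 bases before it, motifs held by 0.213% and 31.025% of all 32851 windows of 300 bases. None of the 4 motifs is in the Bmp4 window, which says only that these letters are not there.

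In the other 3 windows the GENCODE gene begins 609 (Bmp6), 1048 (Id2) and 325 (Id3) bases before the RefSeq start. For these, each match is shown with 11 bases on either side, again with the motif in capitals.
Bmp6, chr13:38345586-38345612, plus strand: gcgcacgtgtgCAGACtgcgagtgacc
Id2, chr12:25096307-25096334, minus strand: caggccccctgGGCGCCcagcgcacact
Id3 first match, chr4:136143644-136143670, plus strand: gtcctcggcgtCAGACcagcctaagga
Id3 second match, chr4:136143743-136143769, plus strand: gacccttggcgGTCTGttttgaataag
Id2 holds GGCGCC 231 bases before its RefSeq start, in an intron by GENCODE, and 11.866% of all windows hold that element. Bmp6 holds CAGAC 119 bases before its start, and Id3 holds it 167 bases before and, on the other strand, 68 bases before. These 3 matches lie in exons by GENCODE, and 49.594% of all windows hold CAGAC or its reverse complement. A match is a string of letters and not a bound site, and no binding was measured here.

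Bmp6 (ENSMUSG00000039004, chromosome 13, 38345107 to 38500302, GRCm38, plus strand) encodes a ligand best known as the BMP that drives hepcidin, the hormone of iron balance, in the liver. It had 1976.6, 1532.8 and 2646.5 at P5 in the cKO, against 131.1, 236.9 and 190.3 at E15.5. In WT it had 1254.7, 1022.7 and 408 at P5, against 196.1, 193.3 and 195.3 at E15.5. Every P5 library lay above every E15.5 library, although WT replicate 3 stood well under the others at P5. The log2 fold changes were 3.46 ± 0.38 (SE, adjusted p = 7.89e-05 by limma) in the cKO and 2.04 ± 0.38 (SE, adjusted p = 0.00194) in WT, and the exact permutation p was 0.1 in each, the smallest that 3 libraries against 3 can give. An exon of Txndc5 on the other strand shares 224 bases with those of Bmp6, 5.74% of its exon length, and the labels do not state whether counting used strand, so reads of both genes cannot be told apart there.

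Bmp4 (ENSMUSG00000021835, chromosome 14, 46383520 to 46390669, minus strand), a ligand needed in mice for the induction of the lens, had 1244.8, 1343.9 and 1479.3 at P5 in the cKO, against 540.2, 677.2 and 459.8 at E15.5. Its WT values were 1518.2, 2225.5 and 714.8 at P5, against 633.4, 632.8 and 561.3 at E15.5. The ages did not overlap in either genotype, with log2 fold changes of 1.29 ± 0.32 (SE, adjusted p = 0.00868 by limma) in the cKO and 1.14 ± 0.32 (SE, adjusted p = 0.0181) in WT. A predicted gene on the opposite strand, Gm15217, shares 89 bases with its exons, 3.96% of their length.

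Bmp2 (ENSMUSG00000027358, chromosome 2, 133552159 to 133562885, plus strand), the ligand closest to Bmp4 in sequence and known for inducing bone, had 562.2, 814.9 and 979.1 at P5 in the cKO, against 355.8, 306.9 and 362 at E15.5. In WT the P5 libraries had 456.1, 566.8 and 189.3 and the E15.5 libraries 337.1, 282 and 303.3. The cKO libraries separated by age and the WT libraries did not, because WT replicate 3 at P5 stood under all E15.5 libraries. The log2 fold change was 1.17 ± 0.35 (SE, adjusted p = 0.0196 by limma) in the cKO and 0.25 ± 0.35 (SE, adjusted p = 0.584) in WT.

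Bmp7 (ENSMUSG00000008999, chromosome 2, 172868012 to 172940321, minus strand), which mice need to form the eye and kidney, was called in neither genotype. It had 1941.3, 1384.8 and 2186.7 at P5 in the cKO, against 1860.7, 1698.8 and 1913.1 at E15.5. In WT it had 1941.3, 2120.3 and 702.5 at P5, against 1928.8, 1744 and 1619.2 at E15.5. The shared value of 1941.3 in the first replicates of both P5 groups is that of 1 rank of the common distribution. The log2 fold changes of -0.014 ± 0.35 (SE, 95% interval -0.78 to 0.75) in the cKO and -0.30 ± 0.35 (SE, -1.07 to 0.46) in WT were not called, with adjusted p of 0.979 and 0.509 by limma, and the intervals leave room for changes of either sign.

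Of the Id genes, Id1 (ENSMUSG00000042745, chromosome 2, 152736251 to 152737410, plus strand) differed most between the ages in the cKO. Its P5 libraries labelled cKO had 2204.8, 6247 and 6315, against 915.3, 792.8 and 691.4 at E15.5. Its WT libraries had 2043.9, 2465.6 and 1346.7 at P5, against 785.8, 766.3 and 837.9 at E15.5. All P5 libraries exceeded all E15.5 libraries, and the P5 cKO replicates 2 and 3 stood far above the other 4 P5 libraries. The log2 fold change was 2.48 ± 0.36 (SE, adjusted p = 0.000408 by limma) in the cKO and 1.25 ± 0.36 (SE, adjusted p = 0.0196) in WT.

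Id2 (ENSMUSG00000020644, chromosome 12, 25093799 to 25097140, minus strand), which also binds E proteins and whose window holds the GC-rich element, had 2690.5, 4279.8 and 5120.1 at P5 in the cKO, against 1116.5, 919.5 and 901.2 at E15.5. It had 3122.9, 3970.2 and 1843.6 at P5 in WT, against 1152.2, 1083.3 and 1071.3 at E15.5. The ages were separated in both genotypes, by 2.0 ± 0.28 on the log2 scale (SE, adjusted p = 0.000317 by limma) in the cKO and 1.36 ± 0.28 (SE, adjusted p = 0.00333) in WT.

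Id3 (ENSMUSG00000007872, chromosome 4, 136143497 to 136145755, plus strand) was the member with the highest counts. In the cKO it had 5649.7, 9652.1 and 11578.8 at P5, against 3238.3, 2897.3 and 3224.3 at E15.5. In WT it had 4323.7, 5898.8 and 3102.9 at P5, against 3020.3, 2865.1 and 3334 at E15.5, so that WT replicate 3 at P5 fell among the E15.5 libraries. The log2 fold change was 1.46 ± 0.27 (SE, adjusted p = 0.00154 by limma) in the cKO and 0.49 ± 0.27 (SE, adjusted p = 0.175) in WT.

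Smad7 (ENSMUSG00000025880, chromosome 18, 75367529 to 75395935, plus strand), an inhibitor of both the BMP and the TGF-beta branch, had the smallest SE of the 9 genes. It had 759.8, 655 and 800.2 at P5 in the cKO, against 317.5, 392.6 and 333.4 at E15.5, and in WT 609.4, 577.4 and 459.3 at P5, against 316, 343.7 and 346.3 at E15.5. No P5 library overlapped an E15.5 library, and the log2 fold changes were 1.08 ± 0.14 (SE, adjusted p = 0.000199 by limma) in the cKO and 0.70 ± 0.14 (SE, adjusted p = 0.003) in WT.

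Smad6 (ENSMUSG00000036867, chromosome 9, 63953076 to 64022059, minus strand), whose window holds the SMAD palindrome and which encodes the inhibitor that acts mainly on the BMP branch, had 749.7, 972.8 and 1197.1 at P5 in the cKO, against 566.8, 464.7 and 585.4 at E15.5. Its WT values were 750.8, 801.8 and 375.3 at P5, against 537.8, 523.5 and 490.9 at E15.5. The WT ages overlapped through replicate 3, and the cKO ages did not. The log2 fold change was 0.83 ± 0.27 (SE, adjusted p = 0.0269 by limma) in the cKO and 0.24 ± 0.27 (SE, adjusted p = 0.503) in WT.

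**Figure D2:**
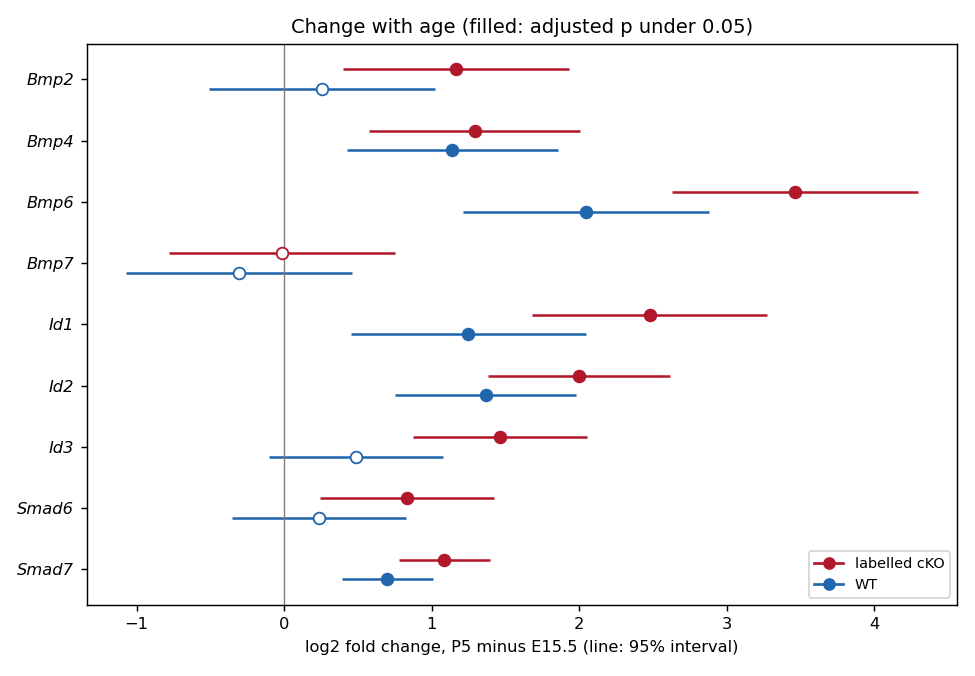
Log2 fold change of P5 over E15.5 for the 9 genes in the libraries labelled cKO and in WT, with its 95% interval as a line; filled points have an adjusted p under 0.05. Bmp6 lies farthest from 0 in both genotypes, at 3.46 and 2.04, and Bmp7 is open in both.

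The age changes of Bmp6, Id1, Id2 and Smad7 in the cKO were called as reported and in all 16 alternatives run for each. A term for lens signal ended the calls of Bmp2 (0.050, adjusted p = 0.930), Bmp4 (0.18, adjusted p = 0.670), Id3 (0.84, adjusted p = 0.113) and Smad6 (0.029, adjusted p = 0.951) in the cKO, where 9 of 10 lens markers were called higher at P5, against 0 of 10 in WT. A term for endothelial signal ended those of Bmp2 (0.34, adjusted p = 0.640), Bmp4 (0.42, adjusted p = 0.517) and Smad6 (0.19, adjusted p = 0.739) in the cKO, where the median of the 9 genes was then 0.67 and Bmp7 was called lower (-1.51, adjusted p = 0.00394). Bmp2 also lost its call without P5 cKO replicate 2 or 3 or E15.5 cKO replicate 2, and Smad6 without any of these or E15.5 cKO replicate 1 or 3. The cKO calls thus held in 15 of 16 alternatives for Id3, 14 for Bmp4, 11 for Bmp2 and 8 for Smad6. In WT the calls of Bmp6, Id2 and Smad7 held in 15 of 16, and were lost with a term for endothelial signal (log2 fold change 0.24, 0.99 and 0.19, adjusted p = 0.735, 0.190 and 0.540), in a fit that left 0 rises and 1 fall among the 9 genes in WT, that of Bmp7 (-2.14, adjusted p = 0.00129). Endothelial markers themselves were called higher at P5 for 10 of 14 in the cKO and 13 of 14 in WT. Their mean log2 value was 9.20 to 9.45 at E15.5 and 10.09 to 11.31 at P5, without overlap. Photoreceptor markers were apart by age as well, and so were lens markers in the cKO (6.23 to 6.73 at E15.5, 8.11 to 9.02 at P5). In fits with such a term, a change with age and one with the marker signal cannot be told apart. Photoreceptor markers were called higher for 10 of 14 tested in each genotype, and Müller glia and astrocyte markers for 5 of 5 in the cKO and 4 of 5 in WT. With a photoreceptor term all 9 age values were above 0 in both genotypes, with a median of 1.65 in the cKO and 0.96 in WT. RPE markers were called higher for 10 of 13 in each genotype (median log2 fold change 2.0 in the cKO and 2.19 in WT), and neural crest, melanocyte and Schwann cell markers for 3 of 6 in the cKO and 5 of 6 in WT. Beside all these marker counts, 17.6% of all genes were called higher in the cKO and 15% in WT. The part of glia, RPE and neural crest derivatives in the age changes was not tested. Without P5 WT replicate 3, 8 of the 9 genes rose in WT, Bmp2 (0.73, adjusted p = 0.0168), Id3 (0.72, adjusted p = 0.0405) and Smad6 (0.58, adjusted p = 0.0202) in addition. Over all genes, leaving out 1 library gave 3639 to 6483 age calls in WT in either direction, against 5171 as reported. The other settings gave 3700 to 9606. The share of all genes that rose in each alternative fit is not given, so the member counts under these fits stand without a background. Without P5 WT replicate 2, or without E15.5 WT replicate 3, 3 of 9 rose, and the calls of Bmp4 and Id1 were lost. That of Bmp4 was also lost without P5 WT replicate 1, and in the 6 WT libraries alone (adjusted p = 0.0813), and that of Id1 without E15.5 WT replicate 1 or 2. Terms for lens (1.02, adjusted p = 0.0630), photoreceptor (0.96, adjusted p = 0.130) and endothelial signal (1.65, adjusted p = 0.102) each ended the call of Id1 in WT, and the endothelial term that of Bmp4 (0.070, adjusted p = 0.934). The WT calls of Bmp4 and Id1 held in 11 and 9 of 16 alternatives.

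Whether the age change differed between the genotypes was tested as an interaction. No member was called, and 3 of 9 had an unadjusted p under 0.05 by limma, all 3 above 0: Bmp6 (1.42 ± 0.53, SE), Id1 (1.23 ± 0.51, SE) and Id3 (0.98 ± 0.38, SE), each with an adjusted p of 0.999988. Over all genes 0.0592% were called, and 1.75% lay above 0 with an unadjusted p under 0.05. All 9 interaction values were above 0, where 46.8% of all genes were, with a median of 0.63 on the log2 scale against -0.018 over all genes. The median was 0.32 without P5 WT replicate 3, 0.25 with the lens term and 0.22 with library weights, with 7 of 9 values above 0 in each. That Bmp2, Id3 and Smad6 rose in the cKO and were not called in WT therefore does not show that their age change differed.

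At P5 the fitted log2 difference of the libraries labelled cKO from WT was above 0 for all 9 genes, where it was for 44.7% of all genes, and none of the 9 was called. For Bmp4 it was at 0 within its error (0.012 ± 0.32, SE), and the mean count ran the other way, 1356 in cKO against 1486 in WT. The differences were largest for Bmp6, Id1, Bmp2 and Id3, at 2.48, 2.34, 2.09 and 2.0-fold. In limma's test 0 of 9 members passed, and 33 of all genes tested did (0.244%, 27 higher and 6 lower). At an unadjusted p under 0.05, 6 of the 9 were higher (Bmp2, Bmp6, Id1, Id3, Smad6 and Smad7), where 4.69% of all genes were. The fit pools the spread of all 4 groups, and the members varied more at P5 than at E15.5. At P5 these p-values may therefore be too low and the intervals below too narrow. The exact permutation p was 0.2 for Bmp2, Id1 and Id3 and 0.3 for Smad6, and that of Bmp6 and Smad7 follows below. With the E15.5 libraries left out of the model, no member was called either. The median log2 fold change of the 9 was 0.65, beside -0.017 over all genes tested.

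Bmp6 and Smad7 were the members whose P5 libraries did not overlap between the labels, 2 of 9, where 3.45% of all genes lay apart in that direction. The lowest Bmp6 value labelled cKO was 1532.8, against the highest of 1254.7 in WT, and the log2 fold change was 1.31 ± 0.38 (SE, 95% interval 0.48 to 2.14, adjusted p = 0.348 by limma). For Smad7 the lowest value labelled cKO was 655, against the highest of 609.4 in WT, with a log2 fold change of 0.43 ± 0.14 (SE, 0.12 to 0.74, adjusted p = 0.438). The exact permutation p was 0.1 for both.

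The other 7 overlapped at P5. Id1 differed by 1.23 ± 0.36 (SE, 95% interval 0.43 to 2.02, adjusted p = 0.370 by limma), with its cKO replicate 1 inside the WT range. Id3 differed by 1.0 ± 0.27 (SE, 0.41 to 1.59, adjusted p = 0.297) and Bmp2 by 1.06 ± 0.35 (SE, 0.30 to 1.83, adjusted p = 0.439). In both, the lowest library labelled cKO lay just under the highest WT library. The values of Smad6 (0.65 ± 0.27, SE, adjusted p = 0.592), Id2 (0.46 ± 0.28, SE, adjusted p = 0.763) and Bmp7 (0.34 ± 0.35, SE, adjusted p = 0.879) were smaller, and the interval for Bmp4 was -0.70 to 0.73 (adjusted p = 1).

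At E15.5 the fitted difference between the labels was at most 0.18 in size on the log2 scale for each member. The 9 values ran from -0.18 (Id2) to 0.15 (Bmp2), 5 above 0 and 4 below (46.8% of all genes lay above 0), with a median of 0.023, and the libraries overlapped for each gene. By limma 0 of 9 members were called, each with an adjusted p of 1, and 0 of 9 had an unadjusted p under 0.05. Over all genes tested, 1 was called (0.00739%) and 0.362% had an unadjusted p under 0.05. The 95% intervals were widest for Bmp6, -0.94 to 0.73, and narrowest for Smad7, -0.26 to 0.36, so they leave room for differences under about those sizes. The fit pools the spread of all groups, and the E15.5 libraries varied less than the P5 libraries.

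**Figure D3:**
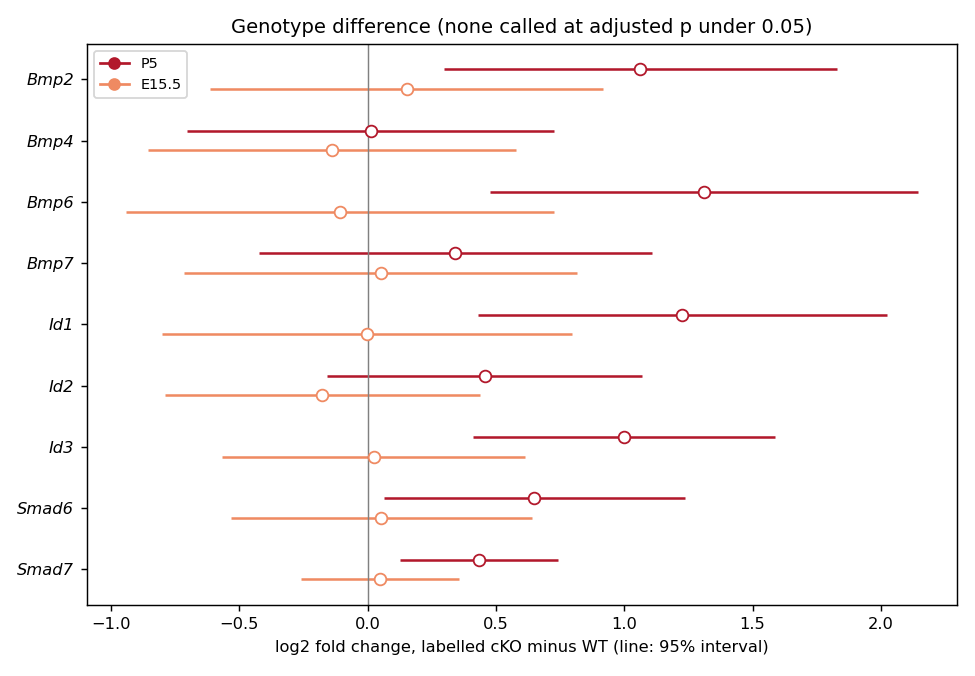
Log2 fold change of libraries labelled cKO over WT at P5 and at E15.5 for the 9 genes, with its 95% interval as a line; open points have an adjusted p of 0.05 or more. All P5 points lie at or above 0, up to 1.31 for Bmp6, and the E15.5 points lie between -0.18 and 0.15.

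Single libraries stood apart at P5. P5 WT replicate 3 was the lowest of the 6 P5 libraries for all 9 genes, and P5 cKO replicate 3 the highest for 8 of 9. Bmp4 was highest in WT replicate 2. From its lowest to its highest P5 library a gene spanned between 1.74-fold (Smad7) and 6.49-fold (Bmp6), against 1.16-fold (Id3) to 1.81-fold (Bmp6) at E15.5. The median SD of the 9 genes between replicates on the log2 scale was 0.39 in P5 cKO, 0.61 in P5 WT, 0.17 in E15.5 cKO and 0.073 in E15.5 WT, beside 0.23, 0.32, 0.12 and 0.11 over all genes.

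Markers of other tissues also varied between these libraries. Between the labels at P5, 9 of 10 lens markers had values above 0 (median log2 fold change 1.58), as had 8 of 8 skeletal muscle markers (median 0.90). Of all genes 44.7% had values above 0. For endothelial markers, 14 of 14 had values below 0 (median -0.31). None of these markers was called, and the mean log2 values of each list overlapped between the labels. The mean log2 value of the photoreceptor markers was 7.39, 10.87 and 9.79 in P5 cKO, against 7.36, 8.58 and 11.64 in P5 WT. That of the lens markers was 8.69, 8.11 and 9.02 in P5 cKO, against 7.29, 8.62 and 5.84 in P5 WT. P5 WT replicate 3 was thus the highest of the 6 libraries for photoreceptor and the lowest for lens markers. It was also the lowest for RPE (10.90), skeletal muscle (9.56), macrophage (7.13) and neural crest, melanocyte and Schwann cell markers (9.13). RPE markers had mean log2 values of 11.12, 11.40 and 11.76 in P5 cKO, against 12.09, 12.16 and 10.90 in P5 WT, and endothelial markers 10.98, 10.09 and 10.63 in P5 cKO, against 11.31, 11.14 and 10.34 in P5 WT. Skeletal muscle markers summed to 26445 to 66892 in P5 cKO, 13565 to 62427 in P5 WT, 34540 to 55837 in E15.5 cKO and 33318 to 65601 in E15.5 WT. P5 cKO replicate 3, highest for 8 of 9 genes, was highest for lens markers and highest of the libraries labelled cKO for RPE markers. With a lens term in the fit, 6 of 9 genes stayed above 0 at P5, with a median of 0.29. All 9 did with a photoreceptor term (median 0.67) and with an endothelial term (median 0.83), against a median of 0.65 without a term. The part of RPE, skeletal muscle, macrophages and neural crest derivatives in the P5 result was not tested.

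**Figure D4:**
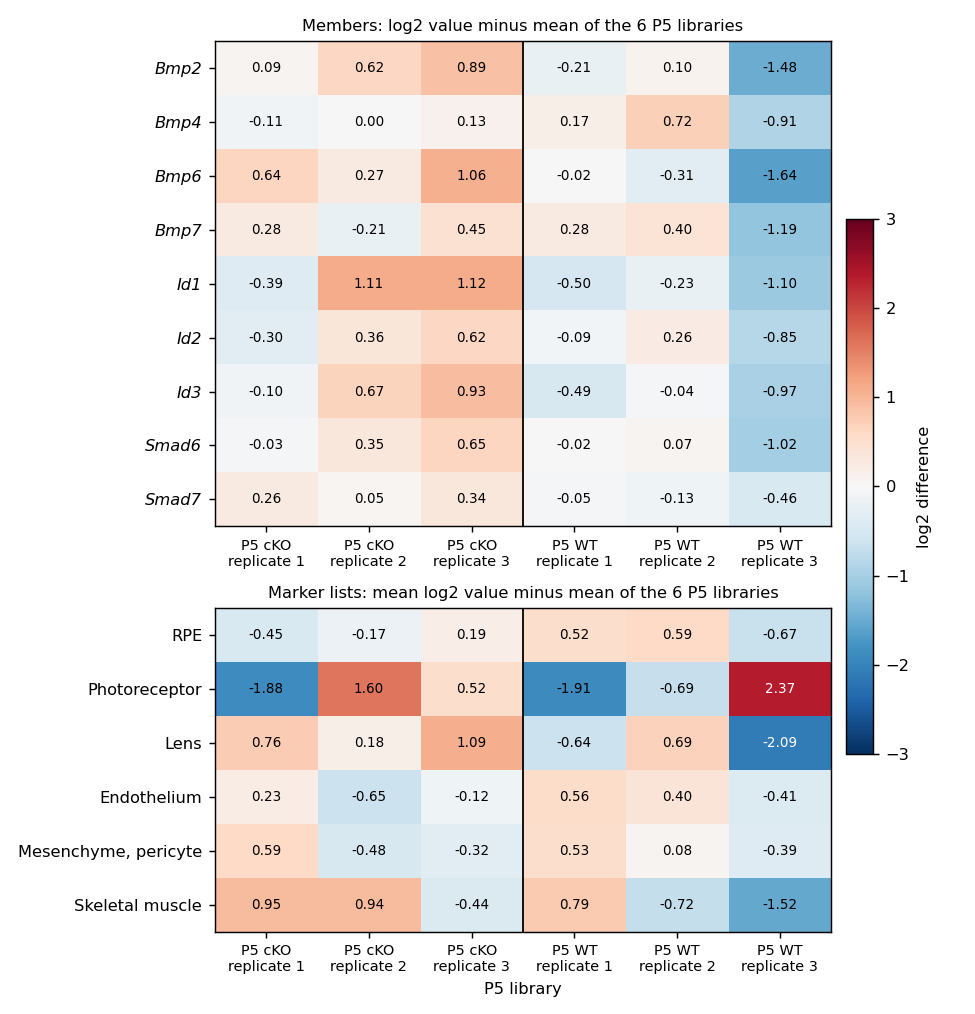
Upper panel, log2 value of each gene in each P5 library minus the mean of the 6 P5 libraries; lower panel, the same for the mean log2 value of 6 marker lists. The P5 WT replicate 3 column is the lowest for all 9 genes, at -1.64 for Bmp6, and is the highest for photoreceptor markers, at 2.37. It is the lowest for lens, RPE and skeletal muscle markers, at -2.09, -0.67 and -1.52.

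Leaving out P5 WT replicate 3 lowered the P5 genotype values to 0.82 for Bmp6, 0.98 for Id1, 0.76 for Id3, 0.59 for Bmp2, 0.31 for Smad7, 0.30 for Smad6 and 0.14 for Id2. Bmp4 and Bmp7 then stood at -0.44 and -0.17, and the median of the 9 was 0.31. No member was called in that fit, the lowest adjusted p being 0.274. Without P5 cKO replicate 1, the lowest library labelled cKO for Id1, Id2 and Id3, 2 members were called: Id1 (1.73, adjusted p = 0.00734 by limma, 0.00734 to 1 over its alternatives) and Id3 (1.3, adjusted p = 0.0310, 0.0310 to 1 over its alternatives). That fit called 132 of all 13523 genes tested. With a term for endothelial signal 5 members were called, Bmp2 (1.3), Bmp6 (1.73), Bmp7 (0.77), Id3 (1.03) and Smad7 (0.55), among 1459 of the 13523 genes.

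Compared per kilobase of exon, Id3 had the highest mean level in each of the 4 groups, followed by Id1. Id3 had 5003 ± 1689 per kilobase (SD, n = 3) in P5 cKO, 2480 ± 783 in P5 WT, 1742 ± 108 in E15.5 cKO and 1716 ± 133 in E15.5 WT. At E15.5 the Id3 libraries all lay above those of Id1 (690 ± 96.7 in cKO, 687 ± 31.9 in WT), and at P5 the libraries of both overlapped. Bmp7 was the ligand with the highest level per kilobase at E15.5, at 454 ± 27.8 in cKO and 439 ± 38.8 in WT, and its libraries overlapped with those of Id2 in both genotypes. Bmp6 had the lowest level of all 9 at E15.5, 47.7 ± 13.6 in cKO and 49.97 ± 0.370 in WT, below every library of Smad7, the next in order.

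The order of the ligands was different at P5. Bmp4 was the highest ligand per kilobase, at 603 ± 52.4 (SD, n = 3) in cKO and 661 ± 336 in WT, and Bmp2 the lowest, at 221 ± 59.1 in cKO and 114 ± 54.6 in WT. Bmp6 had 526 ± 144 in cKO, between Bmp4 and Bmp7 (457 ± 102), and 230 ± 112 in WT, under Bmp7 (395 ± 192). In P5 WT each gene's libraries overlapped with those of the next in order, and in P5 cKO so did all neighbours except Id2 and Bmp4.

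Among the other genes of the pathway, 83 symbols were listed by role and 69 were in the table, all of them tested. With age, 15 rose and 21 fell in the cKO, where 17.6% and 26.1% of all genes did. In WT 15 rose and 22 fell, where 15% and 23.2% did. For genotype, 0 of 69 were called by limma at P5 (11 with an unadjusted p under 0.05, 6 higher and 5 lower, where 7.68% of all genes had one) and 0 of 69 at E15.5 (0 with an unadjusted p under 0.05, where 0.362% of all genes had one). Their median log2 fold change at P5 was 0.00, with 33 values above 0 and 34 below.

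Of 5 other ligand genes measured, 1 rose and 2 fell with age in the cKO, where 17.6% and 26.1% of all genes did. In WT 0 rose and 2 fell, where 15% and 23.2% did. Bmp3, a ligand known to oppose the osteogenic BMPs, averaged 91.0 ± 22.0 (SD, n = 3) at P5 in the cKO, against 619 ± 218 at E15.5, and fell by 2.72 ± 0.31 (log2, SE, adjusted p = 9.12e-05 by limma). In WT it averaged 104 ± 40.6 at P5, against 558 ± 38.2 at E15.5, and fell by 2.48 ± 0.31 (log2, SE, adjusted p = 0.000182). Gdf6 was at the floor in all P5 libraries, so its log2 differences of -0.91 in the cKO and -1.07 in WT are lower limits in size. All E15.5 libraries had Bmp15, an oocyte factor, at the floor, and it averaged 94.8 ± 13.8 (SD, n = 3) at P5 in the cKO, a rise of at least 0.90 (log2).

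Of the 12 receptor and co-receptor genes, 2 rose and 4 fell in the cKO, where 17.6% and 26.1% of all genes did, and 3 rose and 6 fell in WT, where 15% and 23.2% did. Endoglin (Eng), a co-receptor of blood vessels, rose by 1.78 ± 0.26 (log2, SE, adjusted p = 0.000402 by limma) in the cKO and 1.99 ± 0.26 (adjusted p = 0.000246) in WT, beside the endothelial markers given above. The BMP co-receptor Rgma fell by 1.4 ± 0.18 (log2, SE) in the cKO and 1.69 ± 0.18 in WT. The type I receptor Bmpr1b fell by 1.08 ± 0.18 (log2, SE) in the cKO and 1.36 ± 0.18 in WT, to 57.1 on average in both P5 groups, close to the floor. Hemojuvelin (Hfe2), a BMP co-receptor of muscle and liver, fell by 2.03 ± 0.58 (log2, SE, adjusted p = 0.0181) in WT. Of the SMADs that carry the signal, 3 of 4 fell in both genotypes: Smad5 by 0.89 and 0.58, Smad4 by 0.72 and 0.36 and Smad1 by 0.44 and 0.31 in the cKO and in WT (log2).

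Of 18 secreted antagonists and modulators, 4 rose and 7 fell with age in the cKO, beside 17.6% and 26.1% of all genes, and 2 rose and 8 fell in WT, beside 15% and 23.2%. Sostdc1, a secreted antagonist of BMPs and modulator of Wnt signals, averaged 6018 at P5 in the cKO, against 876 at E15.5, and rose by 2.84 ± 0.41 (log2, SE, adjusted p = 0.000402 by limma). In WT it averaged 2186 at P5, against 724 at E15.5, and rose by 1.52 ± 0.41 (log2, SE, adjusted p = 0.0146). Its P5 libraries did not overlap between the labels, and the log2 fold change of cKO over WT was 1.51 ± 0.41 (SE, adjusted p = 0.317). The antagonist Grem1 fell by 2.56 ± 0.31 (log2, SE) in the cKO and 2.37 ± 0.31 (log2, SE) in WT. For Grem1, 2 of 3 P5 cKO and 1 of 3 P5 WT libraries were at the floor, so both falls are lower limits in size. Fst, which traps activins and BMPs, fell by 1.51 ± 0.38 in the cKO and 2.04 ± 0.38 in WT. Kcp, a chordin-like enhancer of BMP binding, fell by 1.51 ± 0.27 in the cKO and 1.06 ± 0.27 in WT (log2, SE).

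Of 9 inhibitors in or at the cell, 2 rose in each genotype and none fell: Tob1 and Tob2 in the cKO (0.96 and 0.93, log2) and Ppm1a and Skil in WT (0.43 and 0.37, log2). Over all genes 17.6% rose and 26.1% fell in the cKO, and 15% rose and 23.2% fell in WT. Of 6 other targets measured, 3 rose in the cKO and 5 in WT, beside the same 17.6% and 15% of all genes. The T-box repressor gene Tbx2, expressed in the developing eye, rose by 1.55 ± 0.22 (log2, SE, adjusted p = 0.000322 by limma) in the cKO and 1.59 ± 0.22 (adjusted p = 0.000327) in WT. Atoh8 rose by 1.23 in the cKO and 0.59 in WT and Hey1 by 1.18 in the cKO and 0.95 in WT, while Tbx3 and Id4, the Id gene outside the 9, rose by 1.26 and 1.20 in WT (log2) and were not called in the cKO (0.69 and 0.55). At P5 the label difference was 0.65 ± 0.19 for Atoh8 (SE, adjusted p = 0.336) and -0.42 ± 0.32 for Id4 (SE, adjusted p = 0.820).

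**Figure D5:**
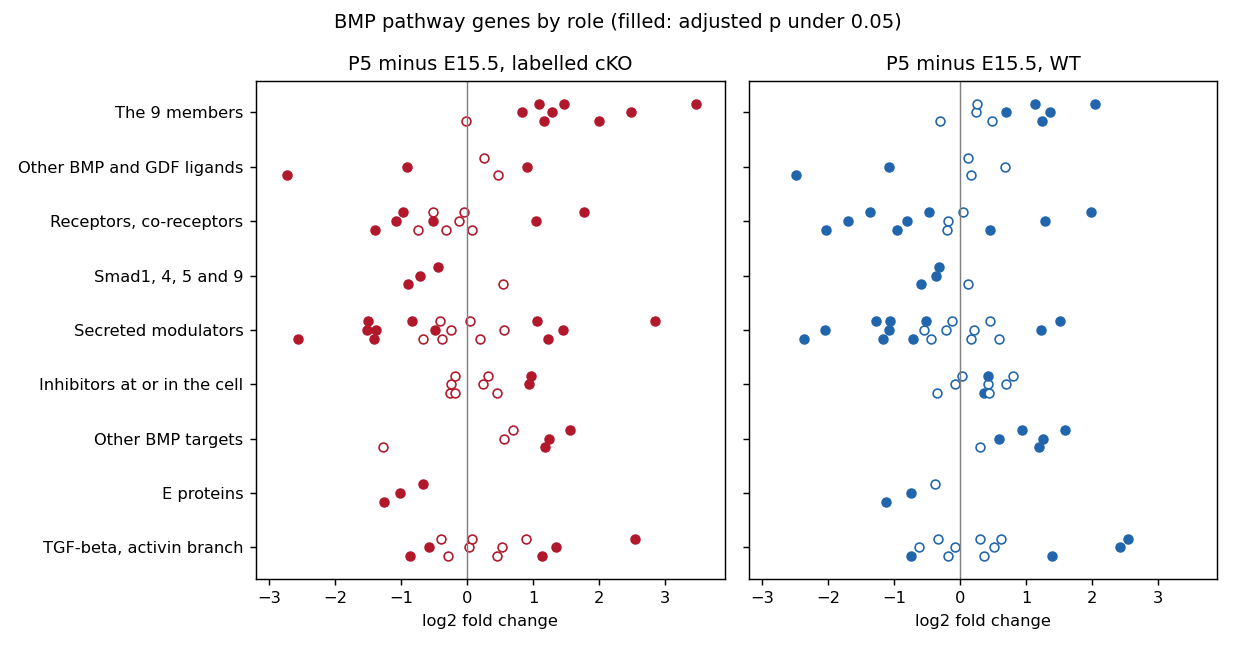
Log2 fold change of P5 over E15.5 for the 9 genes and 69 other pathway genes, in rows by role, in the libraries labelled cKO (left) and WT (right); filled points have an adjusted p under 0.05. The filled points of the 9 genes lie right of 0 in both panels; receptors and secreted modulators have filled points on both sides, and those of the E proteins lie left of 0.

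For each member, the genes of most like pattern were sought by the root mean square difference in log2 values over the 12 libraries, each gene centred on its own mean, among 12956 genes. For the ligands these were Myrf (0.13) and Impa2 (0.18) for Bmp2, Acadl (0.18) and Gng11 (0.19) for Bmp4, Cldn1 (0.29) and Calml4 (0.33) for Bmp6, and Abcc4 (0.12) and Soat1 (0.12) for Bmp7. For the Id genes they were Paqr9 (0.19) and Mt2 (0.21) for Id1, Slco1c1 (0.13) and Slc48a1 (0.14) for Id2, and Cyp2u1 (0.12) and Slc22a17 (0.16) for Id3. For the inhibitory Smads they were Aldh2 (0.11) and Rhod (0.13) for Smad6 and Slc45a4 (0.12) and Fam174a (0.12) for Smad7. The median over all genes compared lay between 0.54 (Bmp7) and 1.58 (Bmp6), and the likeness is a description over libraries that share their ages and tissue content.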

How the data were processed

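Polyadenylated RNA of mouse RPE was sequenced in 12 libraries, 3 in each of 4 groups. The submitters' processing notes name TopHat2 2.0.10, HTSeq and the mm10 build. The deposited signal per gene is a count quantile-normalised by the authors with values under 50 set to 50, going by the table's name; all 12 columns hold the same sorted values, 1376 of them (9.87%) at the floor, so each sums to 12618429 and depth is unknown. Genes above the floor in at least 3 libraries (13523 of 13942) were fitted as log2(value + 1) with limma 3.58.1 in R 4.3.3, with 1 mean per group and trended eBayes. Tests were two-sided, with Benjamini-Hochberg adjustment over all genes tested and calls at adjusted p under 0.05; all adjusted p given are limma's. Positions and exon lengths are from GENCODE M21 (GRCm38), which held 13927 of the genes. The code was tested on simulated data. Alternatives were another pseudocount, filters, weights, marker terms, a block and leaving out each library. Named pathway genes were up to 3 per list and age comparison with the largest called change. The members, lists and tests were chosen with earlier results of these data known.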

Additional observations from a re-analysis of the deposited data

How the results depend on the processing

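With limma, the calls of Bmp6, Id1, Id2 and Smad7 with age in the cKO held under all 16 alternatives, and no member was called at E15.5 or for the interaction under any. Of the values of single members under an alternative, 677 kept direction and side of the threshold, 31 lost the call, 18 gained it and 39 turned sign.

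The members called at P5 for genotype, 0 in all, were 1 with a photoreceptor term, 5 with an endothelium term and 0 to 2 leaving out 1 library. Over all genes that comparison gave 33 calls, but 4 among genes averaging 4 times the floor, 59 with library weights (27 higher and 32 lower), 201 with the photoreceptor term, 1459 with the endothelium term, 2 in the 6 P5 libraries alone and 12 to 132 leaving out 1 library (78 without P5 WT replicate 3, 132 without P5 cKO replicate 1, 14 and 12 without P5 cKO replicates 2 and 3). At E15.5 the 1 call became 14 with weights, 3 with a lens term and 1 to 4 leaving out 1 library. The 8 members called with age in the cKO became 5 with the lens term (4 higher, Bmp7 lower), and the 5905 genes 3417 with that term. The members called were 6 to 8 leaving out 1 library and 5 to 9 over the other settings. In WT the 5 members became 8 with weights, 1 with the endothelium term and 3 to 8 leaving out 1 library, and the 5171 genes 9606 with weights. The 8 interaction calls over all genes became 2 among genes at 4 times the floor, 32 with weights, 19 with the endothelium term and 4 to 24 leaving out 1 library. The cause of these shifts was not tested.

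Signs turned (log2) at P5 for Bmp4 (weights -0.69, lens term -0.67), Bmp7 (-0.38, -0.42) and Id2 (-0.059, -0.044); at E15.5 with weights for Bmp6 (0.026), Id1 (0.020) and Smad6 (-0.031); with age in the cKO for Bmp7 (photoreceptor term 0.98); with age in WT for Bmp2 (lens term -0.21, endothelium term -0.76), Bmp7 (weights 0.22, photoreceptor term 0.64) and Smad6 (lens term -0.10, endothelium term -0.55); and in the interaction for Bmp4 (weights -0.62, lens term -0.50) and Bmp7 (-0.39, -0.44). Leaving out 1 library turned signs within -0.44 to 0.38 (Bmp4) and -0.17 to 0.63 (Bmp7) at P5, and within -0.30 to 0.12 (Bmp6), -0.0096 to 0.12 (Bmp7), -0.10 to 0.10 (Id1), -0.026 to 0.083 (Id3), -0.011 to 0.16 (Smad6) and -0.042 to 0.11 (Smad7) at E15.5. With age it did so within -0.15 to 0.18 (Bmp7) in the cKO and -0.061 to 0.73 (Bmp2) and -0.59 to 0.21 (Bmp7) in WT, and in the interaction within -0.30 to 0.52 (Bmp4) and -0.22 to 0.58 (Bmp7).

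Same-numbered replicates did not all deviate together (correlations 0.78, -0.30 and 0.19 at P5 and -0.019, 0.27 and -0.022 at E15.5), and not every library correlated best with its own number, so they were taken to share only a number. With the replicate number as a block the calls over all genes were 13 at P5, 0 at E15.5 and 1 for the interaction, and 7 members were called with age in the cKO, Smad6 being without a call (0.83, adjusted p = 0.0600). Age calls over all genes in the cKO ran from 3417 to 7522 over the settings other than leaving out 1 library. The block is among these settings, and 5905 genes were called as reported.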

Other observations

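The E proteins, which the Id proteins bind, had lower values at P5. Of 3 such genes, 3 fell with age in the cKO and 2 in WT, where 26.1% and 23.2% of all genes fell. Tcf3 averaged 1816 at P5 in the cKO, against 4322 at E15.5, and fell by 1.26 ± 0.10 (log2, SE, adjusted p = 1.44e-05 by limma). In WT it averaged 2024 at P5, against 4415 at E15.5, and fell by 1.12 ± 0.10 (log2, SE, adjusted p = 2.96e-05). Tcf12 fell by 1.02 ± 0.13 in the cKO and 0.74 ± 0.13 in WT (log2, SE). Tcf4 fell by 0.68 ± 0.16 (log2, SE) in the cKO and had a value of -0.38 in WT that did not pass. At P5 the 3 genes had label differences between -0.27 and -0.17 (log2), none of them called.

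In the TGF-beta and activin branch, 3 of 12 genes rose with age and 2 fell in the cKO, where 17.6% and 26.1% of all genes did, and 3 rose and 1 fell in WT, where 15% and 23.2% did. Ctgf, a matricellular target gene of TGF-beta, rose by 2.54 ± 0.45 in the cKO (log2, SE, adjusted p = 0.0013 by limma) and 2.55 ± 0.45 in WT (adjusted p = 0.00151). Inhbb, which encodes the activin beta-B subunit, had 92.5, 192.4 and 190.3 at P5 in the cKO, against 66.6, 50 and 60.3 at E15.5, and 172.4, 185.5 and 750.6 at P5 in WT, against 50, 59.7 and 50.3 at E15.5. WT replicate 3 at P5 stood far above the other libraries, and 1 E15.5 library of each genotype was at the floor. The rises of 1.34 ± 0.49 in the cKO and 2.42 ± 0.49 in WT (log2, SE) rest in part on these values. The ligand gene Tgfb1 rose by 1.13 ± 0.41 in the cKO and 1.4 ± 0.41 in WT (log2, SE).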
